A study of Drosophila melanogaster with 17 samples.

Results

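The Antennapedia complex of Drosophila melanogaster was examined as the 350 kb between 2.48 and 2.83 Mb of chromosome arm 3R (release 5 of the genome), which runs from lab to Antp in rising coordinates. Fragments were assigned by their midpoints to 1 kb windows, which gave 350 windows of the 120384 on the 6 chromosome arms 2L, 2R, 3L, 3R, 4 and X. The 300 kb on each side, 600 windows in all, served as flanks. The rule for the members uses position and no value of the windows.

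The complex is a cluster of Hox genes, which encode homeodomain transcription factors that give segments their identity along the body axis. Clusters of this kind are textbook targets of Polycomb and Trithorax group proteins, which keep the genes silent or active through chromatin. In the order of the gene table of release 6, lab acts in the head, pb in the mouthparts, Dfd in the mandibular and maxillary segments, Scr in the labial and prothoracic segments, ftz in the early pair-rule pattern rather than as a homeotic gene, and Antp in the thorax. No release 5 gene coordinates were used, so values below are given by position, and none is assigned to a single gene. Micrococcal nuclease (MNase) cuts the linker DNA between nucleosomes, so the lengths and positions of its fragments report where nucleosomes lie and how readily the DNA around them is cut.

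The 17 libraries came from 2 cell lines grown at 26 °C, BG3-c2 from the larval central nervous system and Kc from the embryo. In BG3-c2 cells, 2 libraries followed dsRNA against ISWI, the ATPase of nucleosome-spacing remodellers, with 50 µg of dsRNA and harvest on day 6, and 2 followed control GST dsRNA. Both groups carried an N4 label and were read on Illumina as tetranucleosomal DNA. In Kc cells, 2 nanopore libraries followed dsRNA against the linker histone H1, repeated after 3 days, and 2 followed GST dsRNA. Untreated BG3-c2 cells gave 2 nanopore libraries. These and all dsRNA libraries came from an MNase digest of 20 min at 37 °C. A titration of BG3-c2 cells with low, medium and high MNase gave 1 library per level on each platform, and MNase-digested genomic DNA without histones gave 1 nanopore library. The labels call the Illumina titration libraries total digests, whereas the series' design text has the tetranucleosomal band cut out for Illumina. Nothing in the labels says that replicates were separate cultures, so p-values measure only the spread between these samples, which may be technical. The level of ISWI or H1 after dsRNA was not analysed here.

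Depth in the domain differed widely. The domain held 215313, 118094 and 67757 distinct fragments in the low, medium and high Illumina digests. It held 14304 and 2542 in the ISWI libraries, against 23470 and 3771 in the GST libraries of BG3-c2. Naked DNA gave 7952 domain reads and nanopore chromatin libraries gave 81 to 3528. The second Kc replicates stood apart with 87 domain reads after H1 dsRNA and 81 after GST dsRNA. Only 44.0% and 14.7% of the intervals of the ISWI libraries and 46.6% and 17.0% of those of the BG3-c2 GST libraries lay on the 6 arms, against 75.9% to 84.7% in the other libraries.

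MNase sensitivity was taken as the log2 ratio of low over high digest in each window, scaled to library size, minus the median of all arm windows, so that positive values mark DNA lost at high digest. Windows of the domain lay below the arms, with a median of -0.21 against -0.06 in the flanks, and 236 of the 350 windows were under the arm median. By side, the left flank had a median of -0.11 and the right flank -0.01. Each digest was 1 library, so the difference has no replicate check and no test. Positions within the domain spread far more than the regions did, with 1 kb values running between -1.08 and 2.36.

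A fold of 1.5 either way marked the extremes. In the domain 20 windows, or 5.71%, were sensitive past that fold, compared with 14.3% of all arm windows and 9.83% of flank windows. By side, the share was 6.67% in the left flank and 13% in the right flank. Resistant windows numbered 33, or 9.43%, compared with 8.09% of arm windows and 9.33% of flank windows. The domain therefore held fewer strongly sensitive windows than the arms in these 2 libraries, as did the left flank. Its share of resistant windows was near the background when fragments of all lengths were counted. With fragments of 500 to 1000 bp alone, 54 domain windows were resistant, compared with 10.8% of arm windows, so that nearness depends on the fragments counted.

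The extremes were not spread evenly along the domain. Of the 20 sensitive windows, 11 lay in the 50 kb between 2630001 and 2680000, and each of the other 6 segments of 50 kb held between 1 and 3. Of the 33 resistant windows, 20 lay between 2730001 and the end of the domain, the side toward Antp, with 11 in the segment from 2730001 and 9 in that from 2780001. Medians by segment in rising coordinates were -0.05, -0.18, -0.21, -0.09, -0.15, -0.40 and -0.40. The last 2 segments were thus the most resistant of the 7. The flank segment that adjoins each end was also below the arms, with -0.21 on the left and -0.22 on the right, so the low values ran past both ends of the domain. Such values were not confined to its surroundings. The flank segments from 2230001 and 3080001 each had -0.24, with positive segments between them and the domain.

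**Figure D1:**
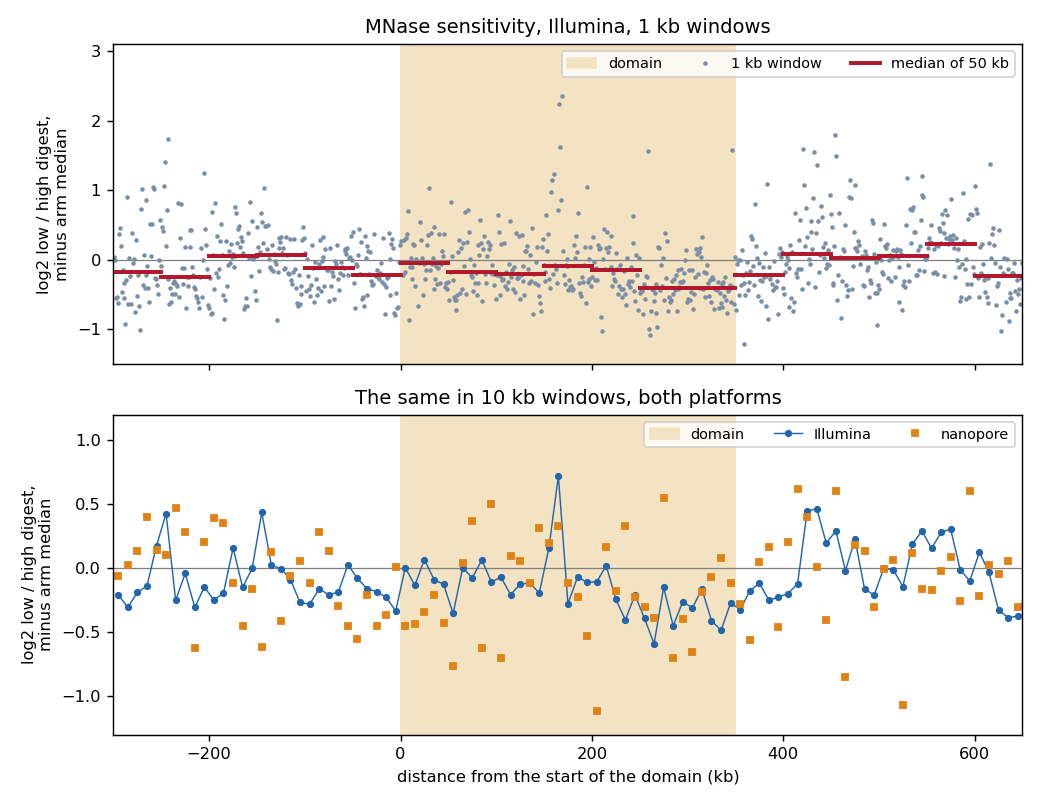
Log2 ratio of low over high MNase digest minus the arm median, plotted against the distance from the start of the domain in kb, with the domain shaded. The upper panel shows Illumina 1 kb windows as points and the medians of 50 kb segments as bars, with -0.40 in the last 2 domain segments. The lower panel shows 10 kb windows on both platforms, where the Illumina value of 0.72 stands above all other domain windows.

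The 5 most sensitive windows of the domain began at 2648001, 2645001, 2646001, 2826001 and 2738001. The window at 2648001 held 1149, 266 and 64 fragments in the low, medium and high digests, a log2 value of 2.36 once scaled to library size, which raw counts also follow. At 2645001 the counts were 909, 217 and 55, a log2 value of 2.23. Both windows were sensitive at each step, with log2 values of 1.21 and 1.16 for low over medium digest and 1.15 and 1.07 for medium over high. Windows 2646001, 2826001 and 2738001 had 1.62, 1.58 and 1.56. The naked DNA digest gave 17 to 31 reads in these 5 windows, against a mean of 22.7 per window over the domain.

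Of these windows 3 belong to the longest run of neighbouring sensitive windows in the domain, 5 windows from 2644001 to 2649000, which was singled out after its values were seen. The run held 938, 277 and 94.2 fragments per window at low, medium and high digest, against 615, 342 and 194 per window in the domain windows that were neither sensitive, resistant nor unusually dense. In naked DNA the run held 1.03 times the reads per window of the other windows (95% Wilson interval 0.86 to 1.24; Wilson intervals here cover counting error only). Reads of 250 bp or less made up 19.7% of naked DNA reads in the run (95% Wilson interval 13.5% to 27.8%) and 12.6% in the other windows (11.8% to 13.4%), so counts were alike while short reads were more frequent. The 10 kb window that contains it, 2640001 to 2650000, was the only domain window of 35 sensitive past 1.5-fold on Illumina at that size, compared with 3.34% of arm windows.

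At the other extreme, the 5 most resistant windows began at 2740001, 2690001, 2739001, 2748001 and 2488001, with values running between -1.08 and -0.86. Window 2740001 held 434, 370 and 266 fragments in the low, medium and high digests. Window 2739001, its neighbour, held 501, 332 and 289. Naked DNA gave 14 to 26 reads in these 5 windows.

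The nanopore titration allowed windows of 10 kb only, with at least 10 reads in each of its 3 libraries. There the domain had a median of -0.18 against 0.00 in the flanks, with 23 of 35 domain windows and 30 of 60 flank windows below the arm median. None of the 35 domain windows was sensitive past 1.5-fold, compared with 7.87% of arm windows, and 6 were resistant, compared with 7.73%. Illumina counts summed into the same windows gave medians of -0.13 in the domain and -0.13 in the flanks, with 1 resistant domain window, compared with 0.233% of arm windows. The lower median of the domain relative to the flanks was thus seen in 1 kb Illumina windows and in nanopore windows, and not in 10 kb Illumina windows. Nanopore values carry a large counting error, since the 35 domain windows together held only 846 reads at low and 878 at high digest. Over the 35 domain windows the 2 platforms had a Pearson r of 0.21, and over all arm windows 0.23; the windows share coverage and base composition, so r is a description. Window 2640001 to 2650000 was above the arm median on both, at 0.72 on Illumina and 0.33 on nanopore.

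The sensitive and resistant windows, chosen on the Illumina titration, were then read in the other libraries. The 288 other domain windows leave out 11 dense windows, over 5 times the arm median in a deep library and so picked partly on the dsRNA counts, and none of the 20 sensitive windows was dense. The 20 sensitive windows held 0.53 and 0.63 times as many fragments per window as the other domain windows in the ISWI libraries, and 0.51 and 0.50 times in the GST libraries. In naked DNA the ratio was 1.05, with a 95% Wilson interval of 0.96 to 1.16. Nanopore chromatin gave 0.75 after H1 dsRNA in Kc cells (0.61 to 0.92), 1.04 after GST dsRNA in Kc cells (0.91 to 1.20) and 1.03 in untreated BG3-c2 cells (0.83 to 1.28), in the first replicates. The 4 Illumina dsRNA libraries were thus low at these positions, whereas naked DNA and 2 of these 3 nanopore chromatin libraries were not. Platform and size selection differ between these libraries, so their part cannot be told apart from that of chromatin. Without the run of 5 windows the ratios were 0.60 and 0.64 in the ISWI libraries, 0.59 and 0.58 in the GST libraries, and 1.06 in naked DNA.

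The 31 resistant windows that were not dense held 1.21 and 1.20 times the fragments of the other domain windows in the ISWI libraries and 1.23 and 1.12 times in the GST libraries, with 1.06 in naked DNA. Nanopore chromatin gave 0.96 after H1 dsRNA and 0.92 after GST dsRNA in Kc cells and 0.97 in untreated BG3-c2 cells, in the first replicates. Over the 339 domain windows that were not dense, the log2 count correlated with the sensitivity at r of -0.39 and -0.19 in the ISWI libraries, -0.48 and -0.28 in the GST libraries, and 0.01 in naked DNA. Over 112713 arm windows the same r was -0.43, -0.33, -0.49, -0.37 and -0.03. These were of like size to the domain in the first ISWI and GST libraries and stronger than it in the second ones. On nanopore the sensitive windows held 1.52, 0.89 and 0.94 times the reads of other windows at low, medium and high digest, each from 48 to 72 reads.

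**Figure D2:**
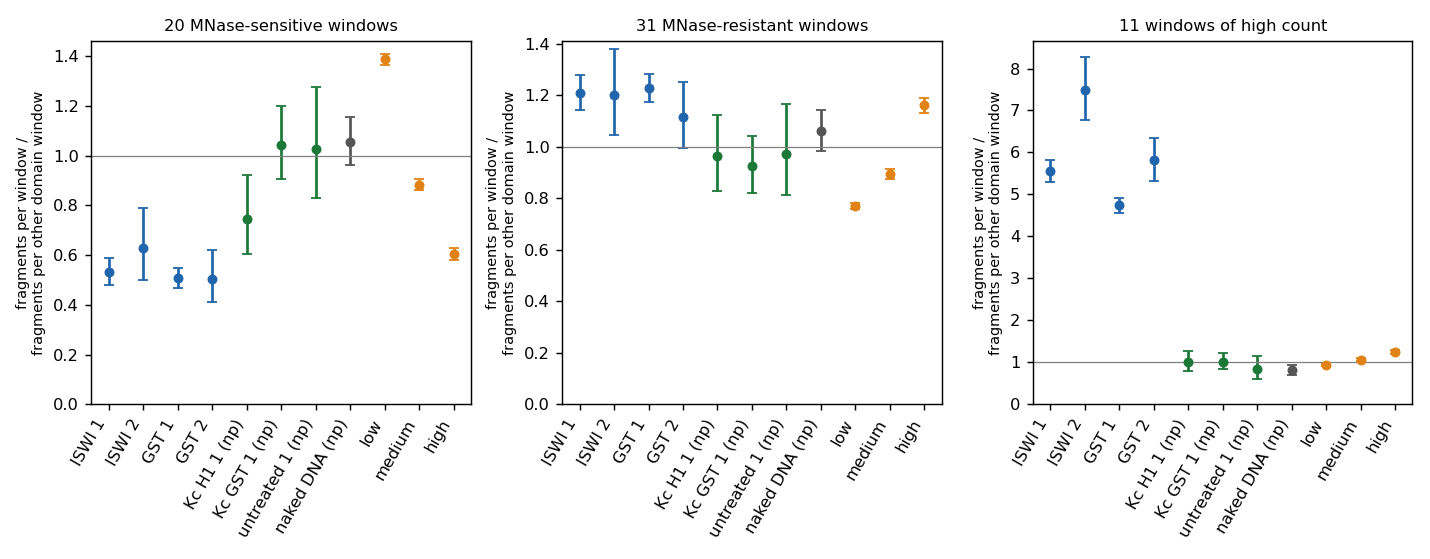
Fragments per window in 3 sets of domain windows, relative to the other domain windows, for each BG3-c2 dsRNA library, first-replicate nanopore libraries and naked DNA (np: nanopore) and the Illumina titration that chose the first 2 sets (bars: 95% Wilson intervals, counting error only). Sensitive windows sit at 0.50 to 0.63 in the 4 Illumina dsRNA libraries, at 0.75 to 1.04 in nanopore chromatin and at 1.05 in naked DNA, and the 11 windows of high count, picked partly on the dsRNA libraries, sit at 4.74 to 7.48 there.

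Read depth in the domain relative to its flanks was slightly low in the tetranucleosomal libraries. The log2 ratio of fragments per kb was -0.21 and -0.30 in the ISWI libraries and -0.19 and -0.32 in the GST libraries, a mean of -0.25 ± 0.07 (SD, n = 4). In the low, medium and high Illumina digests it was -0.17, -0.15 and -0.06, and in naked DNA 0.09. Total digests read on nanopore lay on both sides of 0, with -0.13 and 0.12 in untreated BG3-c2 cells. The 4 dsRNA values were all negative and naked DNA was positive, but naked DNA was a single library on another platform. Against the nearest 150 kb of flank the mean of the 4 dsRNA libraries was -0.15.

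In the domain 11 windows, or 3.14%, were unusually dense, meaning a count over 5 times the arm median in at least 1 of 11 deep libraries, compared with 6.01% of arm windows and 5.67% of flank windows. These libraries chose the windows, so their values are a description. The dense windows held 5.56 and 7.48 times the fragments of other windows in the ISWI libraries and 4.74 and 5.81 times in the GST libraries. They held 0.94, 1.06 and 1.23 times as many in the low, medium and high titration and 0.81 in naked DNA. Values in the titration and naked DNA thus lay far below those of the 4 dsRNA libraries, with a small excess at medium and high digest. The window at 2503001 was the highest, with 371 and 88 ISWI fragments and 565 and 130 GST fragments. Leaving the dense windows out gave domain to flank log2 ratios of -0.15 and -0.22 in the ISWI libraries and -0.14 and -0.25 in the GST libraries.

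Tetranucleosomal fragments, taken as those of 500 to 1000 bp, were nearly as long in the domain as around it. Their mean length was 650.3 and 635.9 bp in the ISWI libraries and 668.7 and 663.3 bp in the GST libraries. The domain minus flank difference was 0.08 and -4.57 bp in the ISWI libraries and -3.10 and -4.28 bp in the GST libraries. Across these 4 libraries the difference averaged -2.97 ± 2.13 bp (SD, n = 4) and was negative in 3 of 4. An exact sign-flip test, two-sided, gave p = 0.25, and the lowest it can give with 4 libraries is 1 in 8. The low, medium and high digests gave -0.83, -1.01 and -2.23 bp, and naked DNA 5.48 bp. Measured against the nearest 150 kb of each flank the mean turned to 1.99 bp, so no direction can be given. Per the series' design text a gel cut enters the lengths of the ISWI and GST libraries; for the titration the labels and that text differ.

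The length was also read along the titration. Mean length in the domain was 697.8, 659.0 and 654.0 bp at low, medium and high digest, against 698.6, 660.1 and 656.2 bp in the flanks. Among the 7 segments the one between 2630001 and 2680000, which held most of the sensitive windows, was the shortest at every dose, with 690.6, 654.7 and 648.9 bp. The other 6 segments ranged between 697.2 and 701.8 bp at low, 656.9 and 661.8 bp at medium, and 651.6 and 657.0 bp at high digest. Inside it, window 2640001 to 2650000 had 679.7, 643.2 and 636.9 bp from 752 to 3246 fragments, the shortest mean of the 35 windows of 10 kb. In the 20 sensitive windows the low digest averaged 681.8 bp, against 699.0 bp in the other domain windows. Naked DNA reads of that length range averaged 664.2 bp there, from 133 reads, against 684.6 bp. In the run of 5 windows the low digest averaged 664.5 bp and naked DNA 675.9 bp, the latter from only 40 reads. The naked DNA means were thus lower at sensitive windows too, but they rest on few reads and have no error given. Whether lengths there are shorter without histones therefore stays uncertain, and the cause was not tested.

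The 3 shortest and 3 longest windows of 10 kb were picked on the titration and then read in the dsRNA libraries, given here in the order of these starts. The shortest began at 2640001, 2790001 and 2630001, and the longest at 2780001, 2700001 and 2570001. In the first ISWI library the shortest measured 649.0, 643.7 and 634.7 bp and the longest 653.1, 646.8 and 678.1 bp. In the second ISWI library the shortest measured 631.3, 599.4 and 614.7 bp and the longest 644.9, 622.8 and 654.8 bp. In the first GST library the shortest measured 643.7, 655.4 and 662.6 bp and the longest 670.1, 677.2 and 686.0 bp. In the second GST library the shortest measured 628.2, 656.3 and 628.6 bp and the longest 642.8, 688.3 and 690.4 bp. The shortest and longest windows overlapped in 3 of the 4 libraries, and means of the second libraries rest on 9 to 39 fragments per window. Windows 2780001 and 2790001, the longest and a short one, are neighbours.

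**Figure D3:**
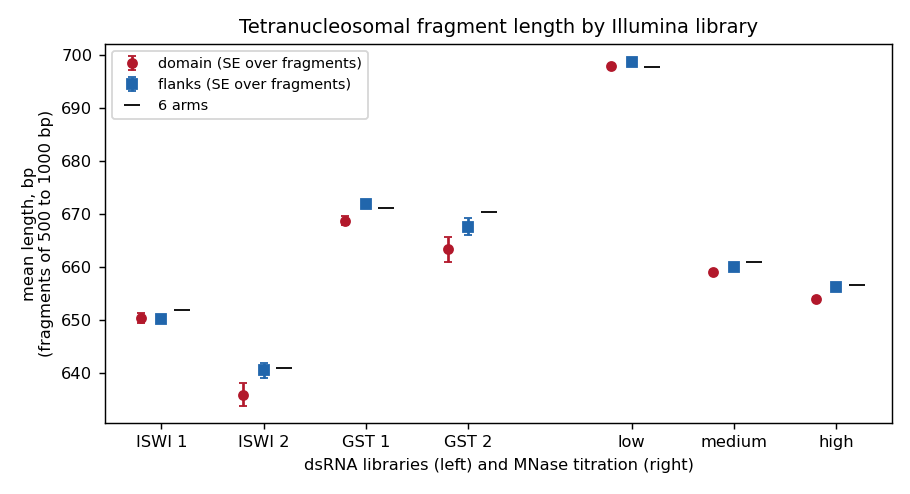
Mean length in bp of fragments of 500 to 1000 bp in each Illumina library, for the domain, the flanks and the 6 arms (bars: SE over fragments, often smaller than the symbol). The ISWI libraries lie at 650.3 and 635.9 bp in the domain and the GST libraries at 668.7 and 663.3 bp, whereas domain, flank and arm values of each library differ by a few bp.

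Shorter fragments, of 250 bp or less, were a little more frequent in the domain in the dsRNA libraries. Their share was 31.1% and 35.5% in the domain against 29.4% and 33.2% in the flanks of the ISWI libraries, and 31.6% and 40.3% in the domain against 29.8% and 38.2% in the flanks of the GST libraries. The low digest gave 26.1% in the domain and 25.0% in the flanks, and the high digest 22.1% and 21.9%. Naked DNA gave 12.5% in the domain (95% Wilson interval 11.8% to 13.2%) and 12.7% in the flanks.

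After ISWI dsRNA the tetranucleosomal fragments of the domain were 22.9 bp shorter than after GST dsRNA, with 643 ± 10.2 bp in ISWI libraries and 666 ± 3.85 bp in GST libraries (SD, n = 2 each). The groups did not overlap, and the difference was -18.4 bp between the replicates numbered 1 and -27.4 bp between those numbered 2. An exact permutation test, two-sided, gave p = 0.33, the lowest that 2 against 2 allows, and 1 after Benjamini-Hochberg adjustment over 9 tests of single values. Flanks shifted by -24.3 bp and the 6 arms by -24.4 bp. Minus its flanks, the domain differed by 1.44 bp (exact permutation p = 1), so the shift of the domain was that of its surroundings.

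Along the domain the shift was seen in each of the 7 segments and in both replicate pairs. It ranged between -22.1 and -15.3 bp in the first pair and between -37.9 and -20.0 bp in the second. The segment at the lab end had -15.3 and -21.2 bp, and that at the Antp end -20.6 and -34.9 bp. The second pair scattered more widely and rests on fewer fragments.

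**Figure D4:**
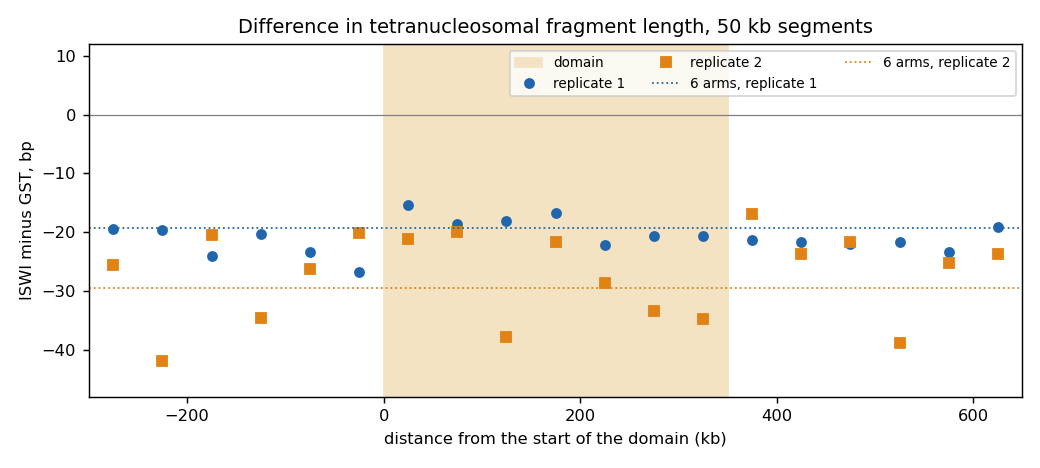
ISWI minus GST difference in mean tetranucleosomal length (bp) in 50 kb segments against the distance from the start of the domain in kb, with circles for replicates 1, squares for replicates 2 and dotted lines for the 6 arms. Every segment lies below 0 in both replicate pairs, inside the domain (shaded) and outside it.

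Limma fits over all arm windows of 10 kb asked whether any window of the domain departed from the shift of the whole library. Lengths were centred on the median window of each library, and 29 domain windows had the 20 fragments required in each library. None of them passed an adjusted p of 0.05, compared with 0% of 8988 arm windows. In this fit 2 domain windows and 365 arm windows had an unadjusted p under 0.05. ISWI and GST libraries did not overlap in 12 of the 29, compared with 28% of arm windows. Without centring 3 of the 29 passed, all shorter after ISWI dsRNA, compared with 23.8% of arm windows. For read depth none of 35 domain windows passed, compared with 0% of 11730 arm windows, where 3 and 410 had an unadjusted p under 0.05, and the groups did not overlap in 8, compared with 34.3% of arm windows. The log2 depth of the domain over its flanks differed by -0.0007 between ISWI and GST libraries (exact permutation p = 1).

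Phasing, the degree to which nucleosomes take the same positions in every cell, was scored as the strength of a 190 bp period in fragment positions minus that at 140 and 280 bp, in percent, where 0 means no period. With midpoints of 500 to 1000 bp fragments the score was near 0 everywhere. It averaged 0.29, 0.09 and 0.28 over domain windows at low, medium and high digest, against 0.12, -0.14 and 0.14 in the flanks. In the dsRNA libraries the domain minus flank difference was 0.36 and -2.01 in the ISWI libraries and 1.35 and -4.73 in the GST libraries. The second ISWI and GST libraries had enough midpoints in only 69 and 81 domain windows, against 326 and 344 in the first ones. The mean of -1.26 ± 2.71 (SD, n = 4) was within the spread of the libraries (exact sign-flip p = 0.5).

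The midpoint score thus carried little signal, and left fragment ends carried more. Left-end scores averaged 1.33, 1.34 and 1.14 in the domain at low, medium and high digest, with SE over windows of 0.22, 0.25 and 0.25. The flanks had 0.57, 0.91 and 0.88, and the arms 0.89, 0.96 and 0.93. Naked DNA had 0.13 in the domain, with an SE of 1.17 over 294 windows, too wide to set it apart from the titration values. Domain values were above flank values at all 3 doses, by less at high digest than at low. Each dose was 1 library, and the labels do not say whether the doses came from separate cultures, so the difference has no test. In the ISWI libraries the domain had 0.65 and -0.65 against 0.13 and 0.87 in the flanks, and in the GST libraries 0.69 and 3.34 against 0.29 and 3.00. Domain values of the second ISWI and GST libraries rest on 76 and 89 windows, with SE over windows of 2.28 and 2.17.

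Strongly phased windows were as frequent in the domain as on the arms. Left-end scores above the 95th percentile of arm windows, a background of 5% by construction, were found in 19 of 350 domain windows at low digest (5.43%), 20 at medium (5.71%) and 13 at high (3.71%). The flanks had 2.5%, 4.33% and 3.34% at these doses, below the domain at each, with 1 library per dose. In the first ISWI library 5 of 106 domain windows with enough ends passed (4.72%), and in the first GST library 10 of 219 (4.57%). There the flanks were slightly above the domain, with 4.98% and 4.95%. By segment the left-end score was positive at all 3 doses in 6 of 7 segments, and the remaining one, at 2580001, had 1.45, 0.88 and -0.03. The highest segment value was 2.37, at medium digest in the segment from 2730001.

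**Figure D5:**
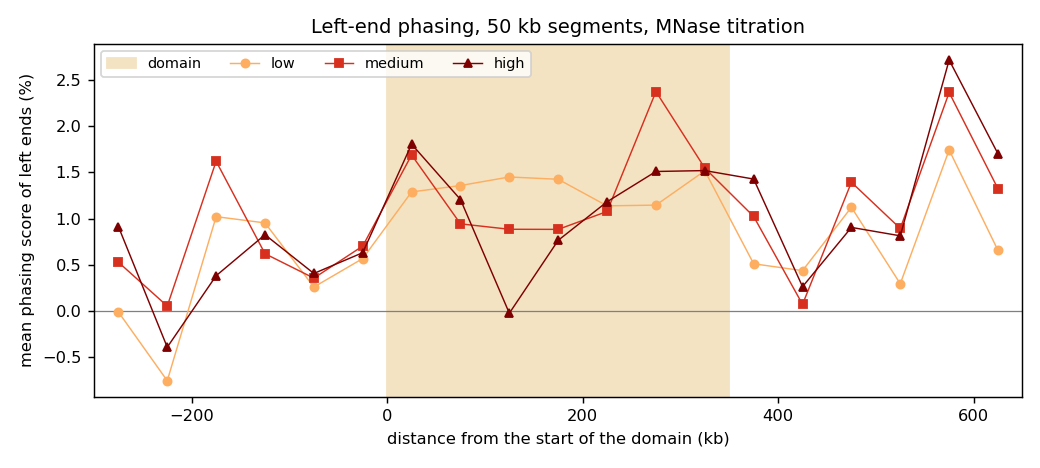
Mean left-end phasing score (percent) of 1 kb windows in 50 kb segments against the distance from the start of the domain in kb, for low, medium and high MNase digests. Domain segments (shaded) lie between -0.03 and 2.37, within the range of the flanking segments, whose highest reaches 2.72.

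Left-end scores of single windows recurred between doses, with r of 0.65 between low and medium, 0.46 between low and high, and 0.58 between medium and high over the 350 windows. The same r over arm windows was 0.68, 0.50 and 0.55. Between the medium digest and the first GST library r was 0.14 over 219 domain windows and 0.37 over arm windows, and between the medium digest and the first ISWI library 0.29 over 106 domain windows and 0.31 over arm windows. Positions shared between the titration libraries thus reappeared only in part in the dsRNA libraries, which were shallower.

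The windows with the highest mean midpoint score over the 3 doses, among 335 with at least 50 midpoints in each, began at 2758001, 2727001, 2531001, 2698001 and 2485001. Their means were 12.9, 11.5, 10.5, 7.58 and 7.51. Read in the first ISWI library, which did not choose them, they scored 8.40, -6.63, 43.9, -25.3 and 12.8. In the first GST library they scored -1.75, 5.37, -21.6, 16.8 and 34.6. In each library 3 of the 5 were positive, and each score rests on at most 36 ISWI or 67 GST fragments of any length. By left ends the 5 highest windows began at 2532001, 2597001, 2632001, 2522001 and 2567001, of which the first scored 19.6, 21.1 and 14.9 at low, medium and high digest. That window was also sensitive, with a log2 low over high value of 0.83, as was 2632001, with 0.65. Windows 2597001, 2522001 and 2567001 were not past the fold, with -0.42, -0.06 and 0.34.

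After ISWI dsRNA the midpoint score of the domain averaged -0.15 ± 0.14, against -1.51 ± 3.51 after GST dsRNA (SD, n = 2 each), a difference of 1.36 (exact permutation p = 1). The second ISWI and GST libraries entered with only 69 and 81 scored domain windows (SE over windows 2.34 and 2.75). Requiring 20 midpoints per window left 8 domain windows in each of them and gave a difference of 0.84. With left ends the difference between ISWI and GST libraries was -2.02, so its direction depends on the end that is scored. Without the second GST library the midpoint difference was -1.13. In the limma fit for phasing 2 domain windows could be tested and none was called, compared with 0.357% of arm windows; the groups did not overlap in 1 of the 2, compared with 29.9%.

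In Kc cells the nucleosome ladder of the domain had a shorter fitted period after H1 dsRNA in the library pair that had enough reads. The period of the read-length distribution between 250 and 1000 bp was 161 bp after H1 dsRNA, from 1401 domain reads, and 176 bp after GST dsRNA, from 2573. Flanks had 161 bp after H1 dsRNA and 180 bp after GST dsRNA, and the arms 165 and 180 bp. With lengths to 800 bp the domain periods were 171 bp after H1 dsRNA and 175 bp after GST dsRNA, a difference of -4 bp in place of -15 bp. Its size in the domain is therefore uncertain, and with 1 library per group it has no test. In untreated BG3-c2 cells the domain period was 187 bp from 1158 reads.

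The ladder was also weaker after H1 dsRNA in that pair. The strength of that period, as a percent of reads, was 13.6 in the domain after H1 dsRNA and 22.2 after GST dsRNA, with 9.74 and 19.6 in the flanks and 11.3 and 17.9 on the arms. Naked DNA gave 3.61 in the domain. Reads of the domain had a median length of 709 bp after H1 dsRNA and 668.5 bp after GST dsRNA, against 677.5 and 646 bp in the flanks.

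The other H1 readings could not separate the groups. Dinucleosomal reads, over 250 and up to 450 bp, averaged 379 and 358 bp in the domain after H1 dsRNA and 376 and 413 bp after GST dsRNA, from 330, 15, 794 and 4 reads. The difference of -26.4 bp (exact permutation p = 0.667) rests on the second replicates. In the first replicates these reads were 2.08 bp longer after H1 dsRNA, although the ladder period of that pair was shorter. Reads of 250 bp or less made up 0.850% and 0% of the domain after H1 dsRNA and 0.709% and 0% after GST dsRNA, where 0 of 87 and 0 of 81 reads allow shares of up to 3.45% and 3.70%, taking 3 reads as the limit for a count of 0. The domain to flank log2 depth was 0.00 and 0.15 after H1 dsRNA and -0.08 and 0.15 after GST dsRNA (exact permutation p = 0.667).

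Between cell lines the depth of the domain could not be told apart either. Untreated BG3-c2 cells had log2 values of -0.13 and 0.12 relative to the flanks, and Kc cells with GST dsRNA -0.08 and 0.15, a difference of -0.04 (exact permutation p = 0.667). The BG3-c2 cells had no dsRNA and the Kc cells had a control dsRNA, so line and treatment cannot be told apart in this pair.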

How the data were processed

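Each table holds the start and end of aligned fragments as the authors deposited them, with a mapping score per read in the nanopore tables and no column names. Per the labels the build is dm3 (release 5), and the submitters' processing notes name Bowtie 1.1.1 and bedtools without saying for which step; the nanopore aligner is not given in the sources used here. The deposited score (unit score, one value per read) was used only as a filter of at least 20 in an alternative. The 6 titration tables were matched to samples by table name.

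Identical intervals were counted 1 time, intervals were kept on 6 arms, and each was assigned by midpoint to a 1 kb window. Depth per library on the arms was 25421 to 2482533 reads on nanopore and 1003420 to 80417273 fragments on Illumina, so the second replicates carry the largest counting error. Log2 low over high digest used a pseudocount of 1 and at least 20 fragments in each of the 3 Illumina titration libraries, which all 350 domain windows had. The phasing score is the unbiased squared resultant at 190 bp minus the mean at 140 and 280 bp, with at least 5 fragments. The ladder period is the period between 150 and 220 bp that is strongest in the length histogram minus its smoothed curve (SD 80 bp), in libraries with at least 1000 domain reads.

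Windows of 10 kb were tested with limma 3.58.1 (trend, ISWI against GST, Benjamini-Hochberg over all windows tested), in R 4.3.3. Single values were tested by exact permutation of libraries or exact sign-flips in Python 3.11.15. Scripts that compute statistics were tested on simulated data. Alternatives changed the flanks, repeated intervals, length range, period, fragment end, pseudocount, minimum count, centring, replicate block and the libraries used. Replicate numbers come from the labels and were not shown to pair samples. The domain, the window lists and the measures were chosen with earlier results of these data known. Left-end descriptions, the 10 kb nanopore windows, the window sets read in other libraries, the 620 to 740 bp midpoints and the ladder period were added after seeing the data, the narrow midpoints after several definitions of the score had been looked at. Named windows are the 5 most phased, sensitive and resistant of 1 kb and the 3 longest and shortest of 10 kb.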

Additional observations from a re-analysis of the deposited data

How the results depend on the processing

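The domain's low sensitivity, its 20 sensitive windows and the shorter fragments after ISWI dsRNA kept their direction under every alternative run on them, except that the ISWI difference minus its flanks was 1.44 bp. Low over medium digest gave a median of -0.090 in the domain against -0.057 in the flanks, with 1 resistant domain window. That gap to the flanks was smaller than with low over high digest. Fragments of 500 to 1000 bp gave 54 resistant windows. Against 150 kb flanks the mean log2 depth of the dsRNA libraries was -0.15 and the length difference 1.99 bp. Differences near 0 turned with the setting: BG3-c2 minus Kc depth was 0.055 as a share of arm fragments, ISWI minus GST phasing -2.02 with left ends, and the H1 minus GST short share -0.25 points after subtracting flanks. The H1 ladder difference was -4 bp with lengths to 800 bp.

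Leaving out 1 library at a time gave log2 depth of -0.28 to -0.23 for the domain over its flanks, and differences of -0.066 to 0.065 for ISWI minus GST, -0.17 to 0.086 for BG3-c2 minus Kc and -0.072 to 0.16 for H1 minus GST. It gave length differences of -3.98 to -2.43 bp for the domain minus its flanks, -30.1 to -15.7 bp for ISWI minus GST and -44.8 to -8.02 bp for dinucleosomes, phasing differences of -2.13 to -0.10 for domain minus flanks and -1.13 to 3.84 for ISWI minus GST, and H1 short-share differences of -0.35 to 0.50 points. Limma calls over all arm windows ranged from 0 to 11 for depth, 0 to 210 for length and 0 to 48 for phasing, against 7 for phasing with all 4 libraries; the lone library left in a group is assumed to vary like the other group. They numbered 2142 for length without centring, and for phasing 1 with left ends and 2 with a 180 bp period. Fits requiring 100 fragments left no domain window to test for length.

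With the replicate number as a block, limma calls numbered 18 for depth (1 of them in the domain, 2510001 to 2520000, with a log2 difference of 0.41, adjusted p = 0.0222 with the block and 0.952 without it), 2 for length and 0 for phasing. Same-numbered libraries deviated together, with r of 0.35 for depth and 0.21 for length across windows, but there are only 2 pairs. The block left the single-value differences as they were, since it is the same mean (ISWI minus GST length -22.9 bp, exact sign-flip p = 0.5). The 2 second Kc replicates, with under 100 domain reads each, limit every H1 comparison.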
